A study of Bos taurus with 4 samples.

Results

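ORAI and STIM are the channel and sensor proteins of store-operated calcium entry, and their transcripts were read in sperm RNA of high-fertile and low-fertile buffalo bulls. The members were every sample probe whose gene name on the array was ORAI1, ORAI2, ORAI3, STIM1 or STIM2, which gave 10 probes on 11 spots out of 51282 probes on 61657 spots. ORAI1 had 2 probes, ORAI3 had 2 (one of them in 2 spots), STIM1 had 3, STIM2 had 3, and no probe carried the name ORAI2. The genes had been picked for this account with their difference between the groups already known, so that difference is described below and not tested. The samples were 2 high-fertile and 2 low-fertile pools of sperm RNA from male Murrah breeding bulls, with the fertility class taken from field conception rates and each pool made from 2 bulls. No agent was given to any bull, the sperm of both groups had been selected on Percoll, and RNA of both groups was labelled with Cy3 and hybridized to a 1-dye bovine array. The samples are registered as Bos taurus while their descriptions say buffalo, so cattle probes read buffalo RNA, and the mismatches between probe and transcript are not known here.

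In cells in general, STIM proteins sit in the membrane of the endoplasmic reticulum and sense the calcium stored there. When the store empties they cluster, reach the plasma membrane and open ORAI proteins, which form the pore of the calcium release-activated channel. STIM1 is the main sensor of store emptying, STIM2 reacts to smaller losses of stored calcium, and the ORAI proteins are related pore subunits. Calcium also controls the motility, capacitation and acrosome reaction of sperm, where the CatSper channel of the flagellum is the best known route of entry.

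The probes shown here are those on which the account turns, namely the ORAI3 probe with the widest spread, the second ORAI3 probe, and the probe of ORAI1 and of STIM1 read on every array. Positions are those of the array files in build Btau_3.1. The ORAI3 probe A_73_P058571 lay on the forward strand at chr25:28918415-28918474 and is printed whole, with capitals on a run of 6 bases that it shared with the probe of PIGN, a brightened neighbour on the slide. No run shared with a brightened neighbour was longer, and NFIL3 shared another of that length. For ORAI3 probe A_73_111712 (chr25:28919249-28919308, forward strand), ORAI1 probe A_73_107427 (chr17:56345490-56345549, reverse strand) and STIM1 probe A_73_106678 (chr15:50441690-50441749, reverse strand), the first 30 bases are printed. Exon and UTR annotation of that build was not used here.
ORAI3 A_73_P058571: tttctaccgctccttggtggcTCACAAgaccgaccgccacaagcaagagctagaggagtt
ORAI3 A_73_111712: ttccatagcccttagactacagaactcttc
ORAI1 A_73_107427: agagaataagtacttcctgttcttccagct
STIM1 A_73_106678: tgccttgtaccccccggacaacctcacatg

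The array design placed the 2 ORAI3 probes at bases 990 and 1824 of the same transcript. It placed the ORAI1 probes at bases 54 and 1332, and STIM1 probes A_73_P204527 and A_73_P045406 at bases 525 and 3113 of 1 STIM1 transcript model, with A_73_106678 at base 3920 of another. The STIM2 probes A_73_P120306 (chr6:47834419-47834478) and A_73_103551 (chr6:47834934-47834993) lay at bases 3009 and 3524. The third STIM2 probe, A_73_P115351, covered 60 bases but ran over a span of 11406 bases of the genome (chr6:47817136-47828541).

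All 4 arrays lay on 1 slide and were read in 1 scan. Each fertility group filled 1 row of the slide, so group and slide position cannot be told apart. Between 23228 and 25642 probes were well above background on 3 of the arrays, against 13033 for low-fertile pool 2. Of 16 sperm marker genes, 5 were well above background on all 4 arrays, and AKAP4, SMCP, LDHC and PGK2 on none. Their summed level on the linear scale, with 1 as the 75th percentile of the array, was 28.2 and 23.7 for the high-fertile against 27.5 and 25.8 for the low-fertile pools. Of 12 leukocyte marker genes, 8 were well above background on all 4 arrays and CD3E and LCP2 on none, with sums of 735 and 713 against 851 and 945. For 8 epithelial genes the sums ran from 31.4 to 38.0, with EPCAM and CDH1 on no array. In limma, 1 of 7 tested sperm genes, 1 of 10 leukocyte genes and 1 of 3 red cell genes rose with low fertility. Besides, 1 leukocyte gene fell, and 0 of 6 tested epithelial genes were called. Of all genes tested, 26.1% were called (9.53% higher and 16.6% lower). The part of these other cell types in the values below was not tested.

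Values are log2 processed signals minus the 75th percentile of the array, so 0 is that percentile, and each group is given as mean ± SD (n = 2 pools). Fewer cells of a type and less RNA per cell cannot be told apart in such pools, and precision is limited by having 4 arrays. Tested probes were those that the scanner software marked as well above background in both pools of either group. Of the 10 ORAI and STIM probes, 4 were tested, and none of these was called at an adjusted p of 0.05 in limma, beside 26.8% of the 21033 probes tested over the array (9.22% higher and 17.6% lower with low fertility). Nothing is read from that count, since the contrast had served to pick the genes. The members' log2 differences between the groups ran from -0.42 to 3.72, and 3 probes were well above background on all 4 arrays while 4 were on none.

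**Figure D1:**
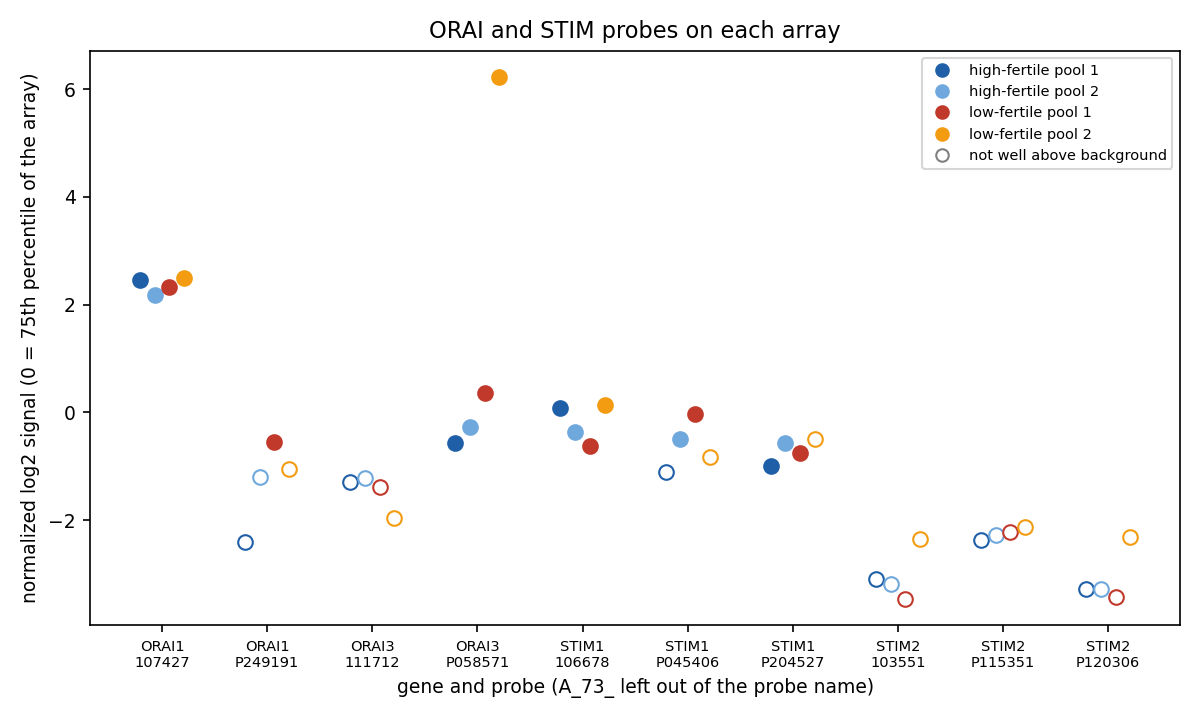
Normalized log2 signal (y axis, 0 is the 75th percentile of the array) of the 10 ORAI and STIM probes (x axis), 1 point for each of the 4 pools, with open points where the probe was not well above background. The ORAI3 probe A_73_P058571 stands at 6.23 in low-fertile pool 2 and between -0.57 and 0.35 in the other pools.

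ORAI1, the pore subunit of the classical channel, was read by its probe A_73_107427 on every array. Its processed signal was 201 and 169 for the high-fertile against 186 and 185 for the low-fertile pools. Once normalized, the pools of the groups overlapped, with low-fertile pool 2 the highest at 2.50 and high-fertile pool 2 the lowest at 2.18. The normalized log2 values were 2.32 ± 0.19 in the high-fertile and 2.41 ± 0.12 in the low-fertile pools. The difference of 0.10 was smaller than the SD of either group. It was -0.04 without high-fertile pool 2, 0.23 without high-fertile pool 1, and 0.29 with the local level around each spot subtracted.

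The second ORAI1 probe, A_73_P249191 (chr17:56360164-56360223, reverse strand), gave signals of 6.89 and 16.2 for the high-fertile against 25.2 and 15.8 for the low-fertile pools. It was well above background only in low-fertile pool 1, and so it was not tested. On the normalized scale the group values were -1.81 ± 0.86 and -0.80 ± 0.35 and did not overlap. Because only 1 of the 4 arrays read it well above background, no fold is given. The log2 difference of these values was 1.00, and it was 0.40 without high-fertile pool 1 and 0.20 with normexp background correction on mean signals.

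ORAI3, the pore subunit found in mammals only, gave by probe A_73_P058571 a processed signal of 24.6 and 30.6 for the high-fertile pools, 47.3 for low-fertile pool 1 and 2444 for low-fertile pool 2. Low-fertile pool 2 stood far above the other 3 pools, which lay close to each other, and the groups did not overlap. The normalized values were -0.57 and -0.28 for the high-fertile (-0.43 ± 0.21) against 0.35 and 6.23 for the low-fertile pools (3.29 ± 4.15). The log2 difference of 3.72 was smaller than the SD of the low-fertile pools. It was 0.78 without low-fertile pool 2 and 6.65 without low-fertile pool 1, and between 3.57 and 3.86 when either high-fertile pool was left out. Of the 4 tested members, ORAI3 was the only one whose groups did not overlap, beside 69.1% of all probes tested.

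The other ORAI3 probe, A_73_111712, sits further along the transcript and was printed in 2 spots. Its normalized values were -1.30 and -1.21 for the high-fertile against -1.39 and -1.96 for the low-fertile pools. On low-fertile pool 2 the processed signals of its 2 spots were 8.76 and 8.00. On none of the arrays was the probe well above background, so the log2 difference of -0.42 carries no fold. That difference was 0.07 with normexp background correction on mean signals and -0.80 with the local level around each spot subtracted. At this signal neither a direction nor an order of the pools can be read from the probe.

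The place of the ORAI3 spot on the slide was then examined. The printed spots form a lattice in which every spot has 6 close neighbours, each holding the probe of some other gene. A spot was counted as raised on an array when its normalized log2 signal was over 2 above the median of the same spot on the other 3 arrays. On low-fertile pool 2, 5 of the 6 nearest spots to ORAI3 A_73_P058571 were raised, and 12 of the 24 nearest. On each of the other 3 arrays, 0 of these 6 spots were raised. Among all 61657 sample spots of low-fertile pool 2, 0.0568% had 5 or more raised neighbours, and on the other arrays 0.0503% to 0.0811% had as many.

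The 6 neighbours hold probes for unrelated products, and their signals on low-fertile pool 2 were of the size of ORAI3's own. The nearest, a predicted transcript (XM_002695639) 34.5 µm away, gave 4.06 and 4.11 with the high-fertile pools, 3.83 with low-fertile pool 1 and 2553 with low-fertile pool 2. NFIL3, a transcription factor, gave 28.5, 36.8 and 39.1 on the first 3 arrays and 2287 in low-fertile pool 2. CA10, a carbonic anhydrase-related protein, gave 45.2, 38.9, 6.38 and 2093 in the same order. All 3 were thus dim on 3 arrays and bright on the array on which ORAI3 was bright.

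PIGN, an enzyme of the glycosylphosphatidylinositol anchor, gave 31.9, 23.0, 31.4 and 1373, and the predicted transcript XM_002687564 gave 18.8, 26.7, 18.6 and 1957. NONO, an RNA-binding protein of the nucleus, was already bright with 334, 411 and 134 and reached 1032, which is 1.80 above the other arrays on the log2 scale and short of the limit for a raised spot. The median deviation of the 6 neighbours on low-fertile pool 2 was 6.04, and that of the ORAI3 spot itself was 6.51. The 60-base ORAI3 probe shared no run longer than 6 bases with the probes of its 5 raised neighbours, and the shortest of these longest runs was 4 bases.

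**Figure D2:**
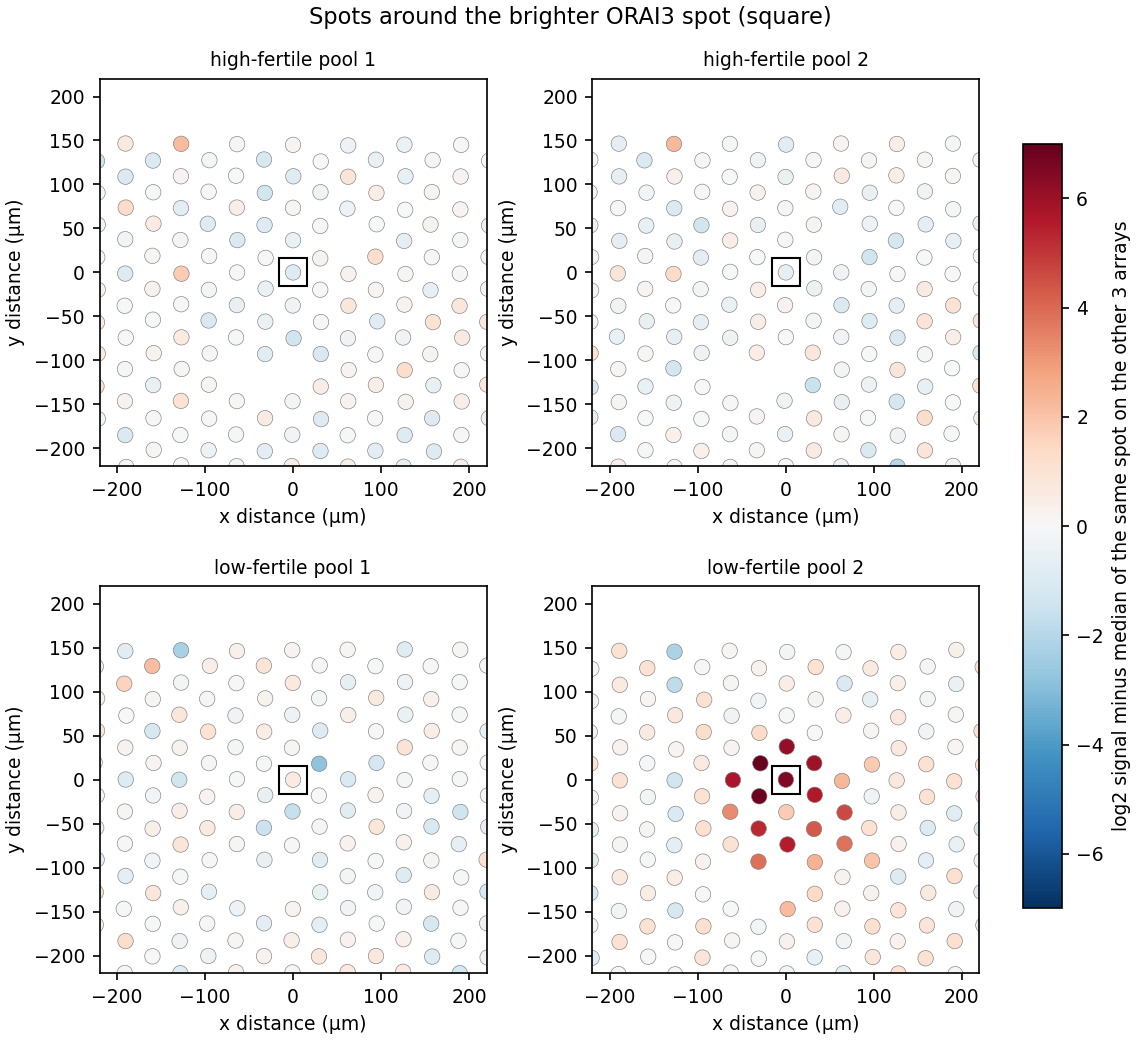
Spots within 220 µm of the ORAI3 spot A_73_P058571 (square) on each of the 4 arrays, by distance in x and y (µm) and coloured by the log2 signal minus the median of the same spot on the other 3 arrays. On low-fertile pool 2 a group of red spots encloses ORAI3 and reaches further toward negative y. On the other arrays 0 of the 6 nearest spots to ORAI3 were raised.

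The brightening on low-fertile pool 2 fell away with distance. Within 50 µm of the ORAI3 spot 5 of 6 spots were raised, from 50 to 100 µm 10 of 23, and from 100 to 150 µm 1 of 27. From 150 to 600 µm no spot was raised on that array (0 of 41, 0 of 98 and 0 of 427 in successive rings). On the other 3 arrays no spot within 150 µm was raised. On low-fertile pool 2 the raised spots from 50 to 100 µm all lay at negative y distances, so the brightening was not centred on ORAI3. A spot 73.7 µm away on that side deviated by 5.48, and a spot 73.0 µm away on the opposite side by -0.06. Raised spots that touched each other formed a group of 16 spots for 16 gene names, ORAI3 included, about 130 µm wide and 131 µm high. Their signals ran from 49.3 to 2553, and the group was the second largest by number of spots on the array, where the largest held 29 spots and 108 of 161 groups were single raised spots.

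The signal lay on the spots and not between them. The ORAI3 spot had a mean pixel signal of 2172, a median of 2202 and a pixel SD of 237 on low-fertile pool 2, and the scanner software marked it neither as an outlier nor as saturated. The local background around it was 27, against 25 to 29 on the other arrays, and for its 6 neighbours it was 24 to 28.

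**Figure D3:**
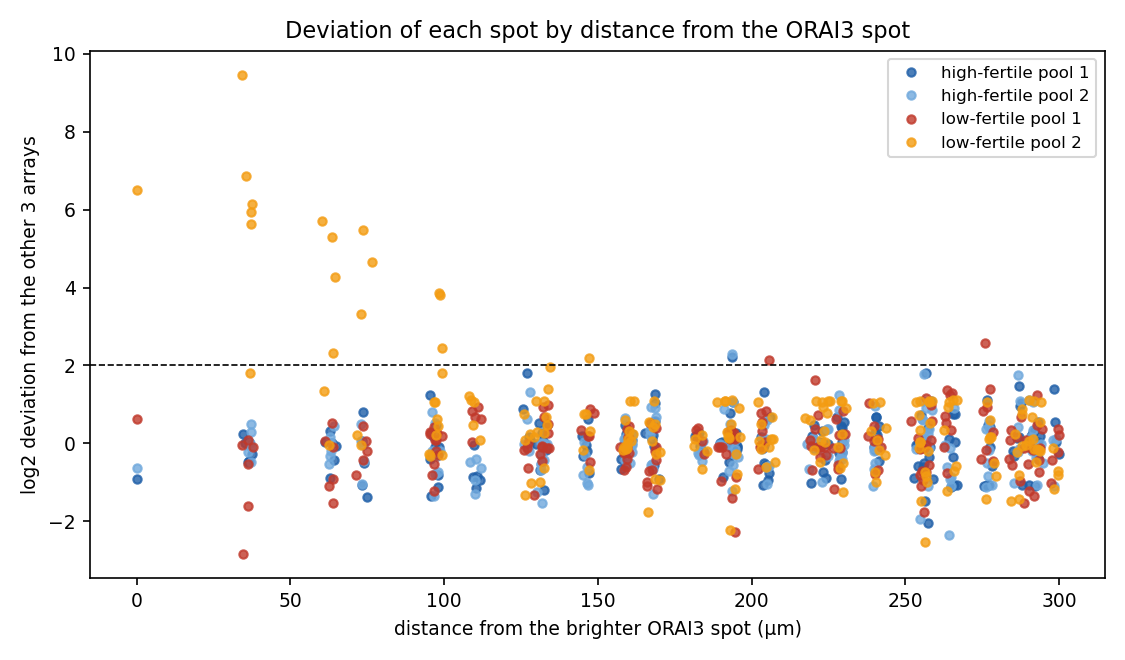
Log2 signal of each spot minus the median of the same spot on the other 3 arrays (y axis) against its distance from the ORAI3 spot (x axis, µm), with the 4 pools in colours and the limit of 2 for a raised spot as a dashed line. In low-fertile pool 2 (orange), 5 of the 6 nearest spots are raised, and the values fall toward 0 beyond 100 µm.

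Some probes of the bright group were printed a second time elsewhere on the array, which gave a reading of the same transcript away from ORAI3. Of the 16, 7 had a second spot, each at least 1101 µm away. On low-fertile pool 2 the spots beside ORAI3 read 49.3 to 2553 and the second spots of the same probes read 6.34 to 32.9. No fold between the spots is given, since several second spots read near the lowest signals of the array. The probe of TNFRSF13C, a receptor of B cells, for example, read 211 beside ORAI3 and 32.9 at its second spot, 5.57 mm away. The ORAI3 probe A_73_P058571 has 1 spot only, so no second reading of it exists on the array.

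**Figure D4:**
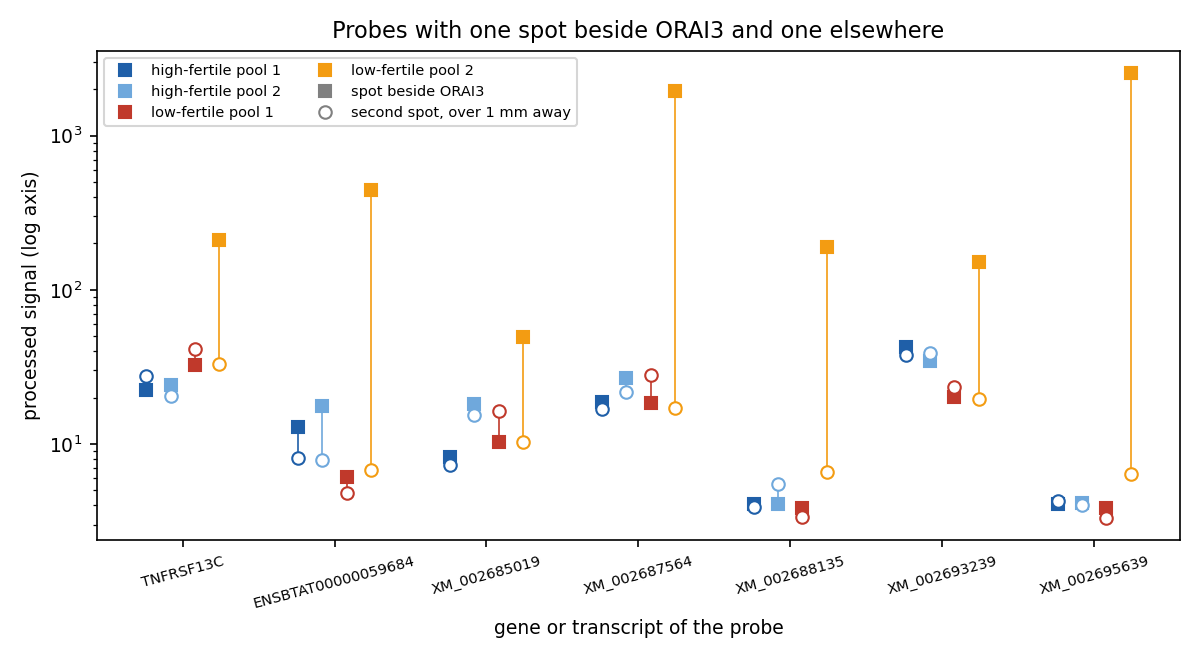
Processed signal (y axis, log scale) of the 7 probes (x axis) with one spot beside ORAI3 (filled squares) and a second spot over 1 mm away (open circles), with the 4 pools in colours and a line joining the spots of a pool. In low-fertile pool 2 the spots beside ORAI3 read 49.3 to 2553 and the second spots 6.34 to 32.9.

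When spots with at least 2 raised neighbours were left out on the array concerned, the ORAI3 difference was 0.79 on the log2 scale, read then from low-fertile pool 1 alone against the high-fertile pools. It was 2.72 when the median deviation of the 24 nearest spots was subtracted, 2.36 and 2.39 with normexp background correction of mean and median signals, and 1.65 as the median over both ORAI3 probes. The part of the bright group in the ORAI3 value was not tested beyond these values.

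None of the other ORAI and STIM spots showed such neighbours. Of the 10 other member spots, 9 had 0 of 6 raised neighbours on all 4 arrays. The spot of STIM2 probe A_73_P115351 had 1 of 6 on both high-fertile arrays, a count reached or passed by 4.88% and 5.10% of the sample spots there. One spot of ORAI3 probe A_73_111712 had 1 raised spot among its 24 nearest on each low-fertile array.

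STIM1, the sensor that opens ORAI channels, was read on all arrays by probe A_73_106678. Its signals were 38.9 and 28.9 for the high-fertile against 24.1 and 35.8 for the low-fertile pools. Once normalized, low-fertile pool 2 was the highest and low-fertile pool 1 the lowest, with both high-fertile pools between them. The normalized values of -0.14 ± 0.31 and -0.24 ± 0.53 differed by -0.11, less than either SD. The sign depended on single pools, with differences from -0.48 to 0.27 as each was left out.

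STIM1 probe A_73_P204527 (chr15:50576287-50576346, reverse strand) gave 18.3 and 25.1 in the high-fertile and 21.9 and 23.1 in the low-fertile pools, a log2 difference of 0.16. It was not well above background in low-fertile pool 2. STIM1 probe A_73_P045406 (chr15:50442193-50442252, reverse strand) gave 17.0 and 26.3 against 36.3 and 18.4, a log2 difference of 0.38. It was well above background in high-fertile pool 2 and low-fertile pool 1 and was not tested. For all 3 STIM1 probes the groups overlapped. As each pool was left out in turn, the difference ran from -0.06 to 0.37 for A_73_P204527 and from -0.02 to 0.77 for A_73_P045406, so neither kept its sign.

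STIM2, the sensor of smaller calcium losses, stayed short of the well-above-background mark by all 3 of its probes on all 4 arrays. Their processed signals lay between 3.37 and 7.90. The log2 differences were 0.14, 0.24 and 0.41, and no fold is given since both groups were below that mark. For probes A_73_103551 and A_73_P120306 the software had written a surrogate value for the spot on all 4 arrays. At this signal a difference in STIM2 was not detectable.

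The genes whose values over the 4 arrays were closest to a member were taken by Euclidean distance after the mean of each probe was removed, among 9014 annotated genes. ORAI3 A_73_P058571 was closest to NFIL3 (distance 0.44), its neighbour on the slide, then to AP1M2 (0.55) and WSCD1 (0.78). AP1M2, an adaptor protein subunit of polarized epithelial cells, stood at -0.73, 0.18 and 0.11 on the first 3 arrays and at 6.35 in low-fertile pool 2. WSCD1 stood at 0.03, -0.61 and 0.58 and then at 5.93. Their spots lay 4474 and 4379 µm from that of ORAI3. On low-fertile pool 2, 3 of the 6 nearest spots to NFIL3, 5 of the 6 nearest to AP1M2 and 6 of the 6 nearest to WSCD1 were raised. On the other arrays 0 of 6 were raised for each of the 3 genes.

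ORAI1 was closest to NKAIN1 (0.02), C11H9orf114 (0.02) and DGKA, a diacylglycerol kinase (0.03). The spots of these 3 genes had no raised neighbour among the 6 nearest on any array. STIM1 A_73_106678 was closest to ARHGAP20 (0.10), NCOA5 (0.12) and FAM54A (0.13), the last with 1 raised neighbour of 6 in high-fertile pool 2. With 4 arrays such likeness describes only these pools.

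Around ORAI and STIM, the genes that empty the store, refill it or act on the calcium that enters were read from their brightest tested probe. The 6 lists, chosen with earlier results of these data known, held 46 genes, of which 43 were on the array and 25 were tested. In limma, 1 rose and 4 fell in the low-fertile pools at an adjusted p of 0.05. That is 5 of the 25, beside 26.1% of all 16685 genes tested (9.53% higher, 16.6% lower). Among those that fell, TRPC1 was tested only through the high-fertile arrays, where it is high, so its call goes with that filter. The balance of directions was not stable: with only probes well above background on all 4 arrays, 4 rose and 3 fell among 19 tested, and with normexp on median signals 4 rose and 4 fell. The median log2 difference of the 25 genes was 0.13, and 0.01 over all genes.

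Of the inositol trisphosphate receptors, which release the stored calcium, ITPR1 rose, with normalized values of 5.48 and 5.84 in the high-fertile and 6.61 and 6.77 in the low-fertile pools. Its log2 difference was 1.03 (standard error 0.183, adjusted p = 0.0136 in limma). Every low-fertile pool lay above every high-fertile pool, and groups without overlap were found for 69.1% of all probes tested. The other tested probes of ITPR1 differed by -0.73, 0.64 and 0.96, and the median over all ITPR1 probes was -0.33. Without high-fertile pool 1 the adjusted p of ITPR1 was 0.0635 in limma. ITPR2 (0.34, adjusted p = 0.206) and ITPR3 (-0.21, adjusted p = 0.390) did not pass the limma test.

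The pumps that refill the store, ATP2A1, ATP2A2 and ATP2A3, did not pass the limma test, but the call of each depended on the processing. ATP2A1 differed by 0.72 (adjusted p = 0.0762) and ATP2A3 by 0.55 (adjusted p = 0.0531). The other tested probe of ATP2A3 differed by -0.49, and with the median over all probes ATP2A3 was -0.49 and ATP2A1 was 0.06. ATP2A2 stood at 1.27 and 1.61 for the high-fertile against 0.53 and -1.85 for the low-fertile pools, a difference of -2.10 in the values as measured (standard error 0.738, adjusted p = 0.0890), and its other tested probe differed by -0.48. Both low-fertile pools were the lower, but the gap between them was wider than that between low-fertile pool 1 and either high-fertile pool, and only low-fertile pool 1 was well above background. The ATP2A2 probe was thus tested through the high-fertile arrays, where it is high, and its size and its p under any setting go with that filter. Without low-fertile pool 2 the differences were 0.40 for ATP2A1 (adjusted p = 0.175 in limma) and -0.91 for ATP2A2 (adjusted p = 0.0516). Without low-fertile pool 1 that of ATP2A1 was 1.04 with an adjusted p of 0.0166 in limma. For ATP2A2 the only low-fertile value left was then not well above background, so neither its size nor its p is given. The lone pool is then assumed to vary like the high-fertile pools. With normexp background correction on mean signals ATP2A1 (0.33, adjusted p = 0.0224) and ATP2A3 (0.27, adjusted p = 0.0143) passed in limma. ATP2A2, tested only through the high-fertile arrays, passed there as well (-0.68, adjusted p = 0.0320 in limma). With only probes well above background on all 4 arrays ATP2A1 and ATP2A3 passed (adjusted p = 0.0345 and 0.0233 in limma). ATP2A1 also passed with the local level subtracted (adjusted p = 0.0200), and ATP2A3 with the percentile over detected probes (0.0430), quantile normalization (0.0395) and bright patches left out (0.0429), all in limma.

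Of the NFAT factors, which calcineurin moves to the nucleus once calcium has entered, NFATC3 fell from 2.28 and 2.36 in the high-fertile to -0.08 and 0.13 in the low-fertile pools. Its log2 difference was -2.29 (standard error 0.154, adjusted p = 0.00221 in limma). The 2 other tested NFATC3 probes differed by -0.41 and 0.61, and with the median over all its probes the difference was -0.10. NFATC2, known by 1 probe, stood at -0.18, -0.08, 0.06 and 4.26 and did not pass the test (2.29, adjusted p = 0.230). As for ORAI3, its high value lay in low-fertile pool 2 alone, where 2 of its 6 nearest spots were raised. Such a count or more was found at 0.701% of the spots of that array. In high-fertile pool 1, where NFATC2 stood at -0.18, 1 of 6 was raised, a count reached or passed by 4.88% of the spots there.

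Phospholipase C enzymes make the messenger that opens the receptors of the store, and of 6 tested PLCB3 passed. PLCB3 fell from 4.11 and 3.80 to 2.61 and 2.67 (log2 difference -1.31, standard error 0.168, adjusted p = 0.00550 in limma), and a second tested probe differed by -0.19. The median over all PLCB3 probes was 0.65. PLCZ1, the sperm phospholipase that starts calcium waves in the egg, differed by 0.32 and did not pass (adjusted p = 0.308). Of the TRPC channels, 4 were tested and TRPC1 fell, from -0.86 and -0.91 to -2.56 and -2.41 (adjusted p = 0.00278 in limma). TRPC1 was not well above background on either low-fertile array and was tested only because it was on both high-fertile arrays, so its call goes with that filter. The mean was -0.88 in the high-fertile and -2.49 in the low-fertile pools. No fold is given, since the low-fertile values were not well above background. With normexp background correction, which adds an offset of 50, the log2 difference of TRPC1 was -0.18 on mean signals (adjusted p = 0.0702 in limma). On median signals it was -0.20 (adjusted p = 0.0566 in limma), against -1.60 in the values as measured. Of the 4 tested regulators of ORAI and STIM, the septin gene SEPT4 fell by 0.76 (adjusted p = 0.0209 in limma), while its 2 other tested probes differed by 0.17 and -0.16. The spots of all 5 genes that passed had no raised neighbour among the 6 nearest on any array.

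**Figure D5:**
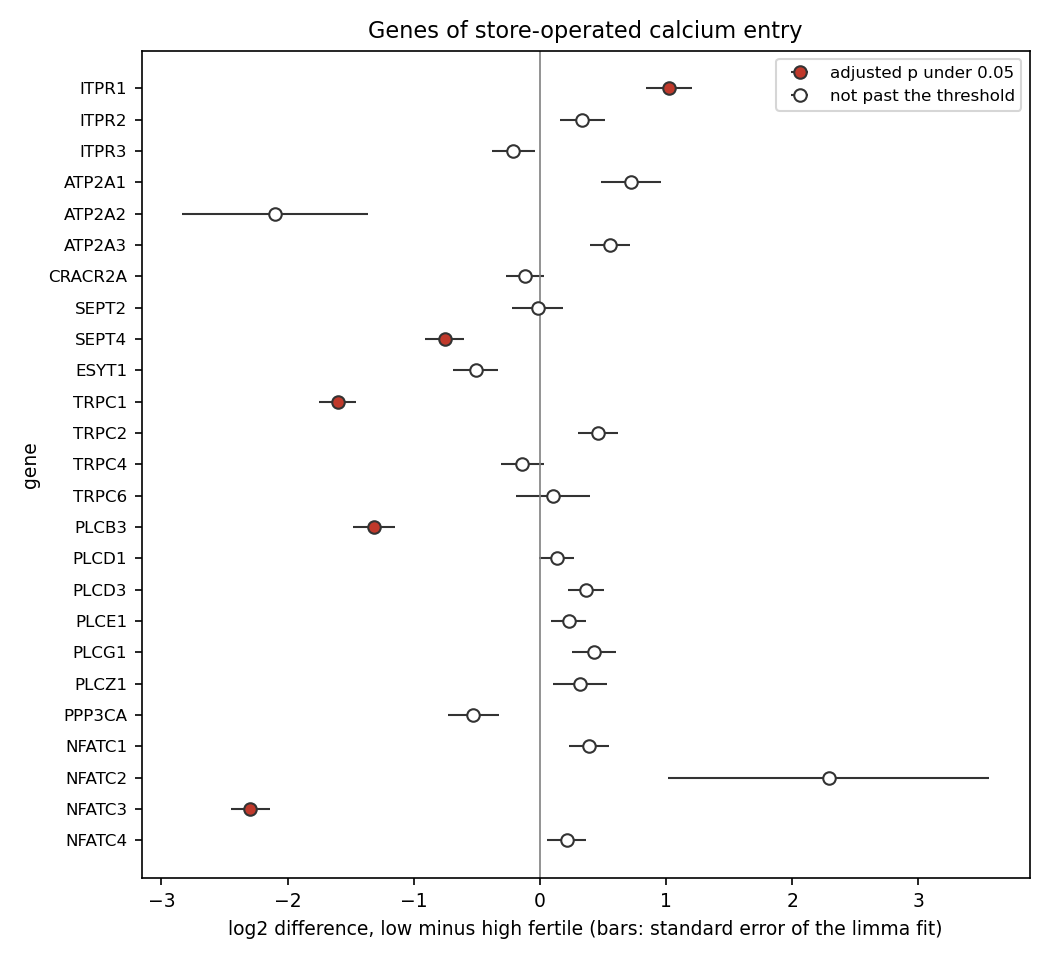
Log2 difference, low-fertile minus high-fertile (x axis), of the 25 tested genes around ORAI and STIM (y axis), as the estimate and standard error of the limma fit. Filled points mark the 5 genes past an adjusted p of 0.05, of which ITPR1 is higher and SEPT4, TRPC1, PLCB3 and NFATC3 are lower. TRPC1 was tested only through the high-fertile arrays, where it is high.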

How the data were processed

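Scanner output of 4 one-dye arrays and a value table were used. The authors made the deposited intensity files with Feature Extraction 11.5.1.1, which subtracts background within an array and writes a surrogate for dim spots, and the deposited log2 table by the 75th percentile shift. Here outlier spots were left out, log2 processed signals averaged per probe, and the percentile subtracted (Python 3.11.15, pandas 2.3.3, numpy 2.4.6). The 21033 tested probes were fitted in limma 3.58.1 (R 4.3.3) with Benjamini-Hochberg adjustment, two-sided, and the script was tested on simulated data. With 200 of 21033 simulated probes changed, it recovered 85.2% of 4-fold and 5.2% of 2-fold changes. Positions were read as pixels of 3 µm. Members and lists were chosen with earlier results of these data known.

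Named were all member probes, all ITPR and ATP2A genes, genes of the other lists past an adjusted p of 0.05 with a log2 difference of at least 1, and the 3 genes nearest to each tested member gene. Beside these, the 6 spots nearest to ORAI3 were named for their position and marker genes for being well above background on no array, and NFATC2, PLCZ1, SEPT4 and TNFRSF13C after their values were seen. ALG2 was listed as a regulator by mistake and had no tested probe. Pool numbers of the groups do not pair the samples (r = 0.0055 between the pool differences over 21024 probes). Alternatives covered background correction, normalization, filters, patches, probe choice and each pool left out. The p-values measure the spread between pools only. The summed level of a red cell marker list is not reported here.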

Additional observations from a re-analysis of the deposited data

Results flagged for a closer look

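Among the 6 closest neighbours of ORAI3 A_73_P058571, 5 were raised in low-fertile pool 2 by over 2 log2 units above the same spots on the other 3 arrays, and 0 of 6 on each of those arrays. These spots belong to genes outside the ORAI and STIM comparison, which is what drew attention to them.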

How the results depend on the processing

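With 2 pools a group, an exact permutation test of a single value reaches 0.333 as its smallest two-sided p, and probes near background, STIM2 above all, limit what can be read. Over all probes, limma called 0 without a filter on dim probes (9278 had an unadjusted p under 0.05), while 0 were called by the methods' t-test after adjustment (6084 unadjusted), and leaving out a pool gave 2640 to 4989 calls against 5632 (2872 with high-fertile pool 1 dropped, 2640 with pool 2 of that group dropped). Of the calls, 65.6% were lower in the low-fertile pools, and 37.5% when only probes well above background on all 4 arrays were fitted. Among the genes around ORAI and STIM, the 5 calls became 8 with normexp on median signals, 1 when each gene was read as the median of its probes, 0 without the filter (9 unadjusted), 0 by the methods' t-test (8 unadjusted), and 3 to 9 when a pool was left out (3 with high-fertile pool 1 dropped, 9 with low-fertile pool 1 dropped). The median over probes turned ITPR1 to -0.33, PLCB3 to 0.65 and ATP2A3, which was not called, to -0.49. ORAI1 A_73_107427 was 0.29 with the local level subtracted and 0.55 as the median over its probes. With 24 nearest spots, 12 were raised near ORAI3. With the pool number as a replicate block, 5331 probes and 6 of these genes were called, ATP2A2 among them (adjusted p = 0.0444, limma), a probe tested only through the high-fertile arrays. The cause of these changes was not tested.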

Other observations

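A further probe, named on the array only by a RefSeq accession (XM_002688161) that the RefSeq gene table gives to STIM2, was not among the members, which were chosen by gene name. It was printed in 2 spots, and on no array was it well above background. Its processed signals were 4.69 and 3.47 in high-fertile pool 1, 4.41 and 5.73 in high-fertile pool 2, 17.1 and 3.62 in low-fertile pool 1, and 10.2 and 5.99 in low-fertile pool 2.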
